A study of Mus musculus with 32 samples.

Results

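The genes described here are Trem2 and 9 markers of disease-associated microglia, namely Tyrobp, Apoe, Lpl, Cst7, Spp1, Gpnmb, Itgax, Axl and Cd9. They were chosen by name, and all 10 were found among the 45706 genes of the expression table. They were measured by RNA sequencing in BV-2, a cultured mouse line derived from microglia that the labels class as glioblastoma, with wild-type genotype. Each culture was transfected with a mimic, a short RNA that acts as a mature microRNA. The mimics were those of miR-7a-5p, of miR-29a-3p and of miR-146a-5p, and a scrambled sequence served as negative control. Cultures also received vehicle or 10 ng/ml of the bacterial endotoxin lipopolysaccharide (LPS), an activator of macrophages, for 24 h. The 8 groups are named VEH or LPS and the mimic, from VEH_scramble to LPS_miR-146a, and each held 4 libraries numbered 1 to 4. The labels place LPS before the transfection, whereas the study's methods place it after. All groups rest on 1 cell line, so the libraries do not sample different animals. All 3 mimics shared the same scramble libraries within a condition, so a deviation in those libraries enters all 3 comparisons.

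Disease-associated microglia (DAM) are a state of brain macrophages first described around amyloid deposits, in which genes of lipid uptake, lysosomes and phagocytosis are raised and homeostatic genes are lowered. TREM2 is a surface receptor for lipids and lipoproteins that signals through the adaptor DAP12, the product of Tyrobp, and entry into the later stage of the DAM programme is known to depend on it. Apoe and Lpl encode a lipoprotein and a lipase, Axl a receptor of the TAM family, and Itgax, Cd9 and Gpnmb encode surface or membrane proteins of the same programme.

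The 3 mimics carry different seeds, the stretch of a microRNA that pairs with its targets. Their mature sequences, shown because the mimics are the treatments compared, come from RefSeq on build GRCm38.p6, with bases 2 to 8 in capitals. The miR-7a sequence lies at chr13:58392841-58392863 (minus strand, Mir7-1) and at chr7:78888295-78888317 (plus strand, Mir7-2). That of miR-29a lies at chr6:31062673-31062694 and that of miR-146a at chr11:43374435-43374456, both on the minus strand.
mmu-miR-7a-5p: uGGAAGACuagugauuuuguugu
mmu-miR-29a-3p: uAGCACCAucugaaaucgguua
mmu-miR-146a-5p: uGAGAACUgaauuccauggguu

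The 3′UTR of the longest annotated coding transcript of each gene was searched on its own strand for seed matches. A 7-base match pairs either with bases 2 to 8 of the microRNA or with bases 2 to 7 followed by A. For miR-7a these letters are GTCTTCC or else TCTTCCA. For miR-29a they are TGGTGCT or else GGTGCTA. For miR-146a they are AGTTCTC or else GTTCTCA. Where both overlapped, they were counted once as an 8-base match. Such matches were found in Lpl, Cst7, Gpnmb and Axl, and these letters were not in the 3′UTRs of Trem2, Tyrobp, Apoe, Spp1, Itgax and Cd9. Of 21021 genes with a 3′UTR, 22.75% held a match for miR-7a, 15.84% for miR-29a and 17.91% for miR-146a. The 3′UTRs of the genes without a match were short, from 173 bases for Tyrobp to 463 for Itgax. Among genes with 3′UTRs of like length, 2.26% to 9.51% held a match for a given mimic. For Lpl, with 2428 bases, that share was 27.87% to 39.55%. The matches are printed in capitals within 30 bases of the GRCm38 genome, read in the direction of the transcript, since they mark the members with letters complementary to a mimic. A match describes the sequence and is not evidence of a site in use.
Axl miR-7a match 1, chr7:25758632-25758661, minus strand: gacaaTCTTCCAcctgggacatcctctcag
Axl miR-7a match 2, chr7:25758457-25758486, minus strand: atcgtctcacaTCTTCCAtcccagcgttct
Axl miR-146a match, chr7:25758409-25758438, minus strand: ttagagttcaaAGTTCTCAaagatgatgag
Lpl miR-7a match, chr8:68904715-68904744, plus strand: gcccatagcagGTCTTCCAgcattagaaga
Lpl miR-29a match, chr8:68906759-68906788, plus strand: gtatagatttgTGGTGCTAactttgtgtcc
Cst7 miR-29a match, chr2:150578707-150578736, plus strand: aatgaattctcTGGTGCTAcacacctagat
Gpnmb miR-29a match, chr6:49057228-49057257, plus strand: aactagggtggGGTGCTActggcatctagt

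Levels are given in CPM, the restored count of a gene per 1e6 counts of its library after scaling by trimmed means (TMM). Counts outside small structural RNA genes, in units of 1e6, ranged from 0.748 in VEH_miR-7a replicate 4 to 19.96 in LPS_scramble replicate 4. The level that 3 counts give ranged from 0.153 to 4.36 CPM. VEH_miR-7a replicates 2 to 4 stood apart, with 45048 to 71522 CPM of the structural RNA Rmrp against 2852 CPM in replicate 1 of that group. VEH_miR-29a replicate 2 held 28659 CPM and no other library more than 10635 CPM. Where a change reported for a member rests on VEH_miR-7a, its log2 fold change without replicates 2 to 4 is also given in the text. All 8 microglia and macrophage markers were detected, and their summed level ranged from 3100 to 4827 CPM under vehicle and from 2893 to 4747 CPM under LPS. These sums hold changes in both directions. Of 7 tested markers 2 were called higher under LPS with scramble, Adgre1 (the macrophage antigen F4/80, log2 fold change 0.92) and Itgam (0.54), and 2 lower, Fcgr3 (an Fc receptor, -0.68) and Csf1r (-0.62). With miR-29a Adgre1 (0.72) was called higher and Fcgr3 (-1.34), Csf1r (-1.13) and Itgam (-0.37) lower. With miR-7a Adgre1 (0.86) was called higher and Fcgr3 (-0.61) lower, and without VEH_miR-7a replicates 2 to 4 they changed by 0.68 and -0.66. With miR-146a Adgre1 (0.65) was called higher. Among the 8 markers Cx3cr1, the fractalkine receptor, stayed at or below 7.41 CPM and was at 0 in 5 libraries. The homeostatic microglia markers Sall1 and Siglech were at 0 in 26 and 25 of the 32 libraries, Tmem119 did not exceed 8.13 CPM and P2ry12 did not exceed 14.1 CPM. The part of these marker levels in the results below was not tested. Summed markers of astrocytes, neurons, endothelial cells and fibroblasts stayed at or below 3.90 CPM in every library. Of the oligodendrocyte markers, Mbp did not exceed 18.9 CPM and Mog was at 0 in 27 libraries. At these low levels Mbp was called lower under LPS with scramble (log2 fold change -0.91) and was not called with the active mimics.

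Per kilobase of merged exons, Spp1 (the secreted phosphoprotein osteopontin) had the highest mean level over the 32 libraries, at 3932 CPM per kilobase. Gpnmb (a transmembrane glycoprotein linked to lysosomes) followed with 1331, Apoe with 1095 and Tyrobp with 679 CPM per kilobase. Cd9 (a tetraspanin) averaged 205, Lpl (lipoprotein lipase) 182 and Cst7 (the cysteine protease inhibitor cystatin F) 70.7 CPM per kilobase. Trem2 averaged 54.2, Itgax (the integrin subunit CD11c) 28.7 and Axl 5.16 CPM per kilobase. The order of Gpnmb and Apoe differed between groups, also among the vehicle groups. Group means per kilobase ranged from 432 to 1805 CPM for Apoe and from 1015 to 1634 CPM for Gpnmb. In VEH_scramble Apoe averaged 1776 against 1444 for Gpnmb, whereas in VEH_miR-7a Apoe averaged 1029 against 1140 for Gpnmb. Group means ranged from 27.7 to 88.5 CPM per kilobase for Trem2 and from 329 to 1055 for Tyrobp, so the receptor was lower per length than its adaptor in every group. The 10 genes are protein-coding. On the GRCm38 annotation Trem2 lies at chr17:48346401-48354147, Tyrobp at chr7:30413760-30417585, Apoe at chr7:19696109-19699188, Lpl at chr8:68880491-68907448 and Cst7 at chr2:150570415-150578944. Spp1 lies at chr5:104435118-104441050, Gpnmb at chr6:49036546-49070929, Itgax at chr7:128129547-128150657, Axl at chr7:25757273-25788705 and Cd9 at chr6:125460266-125494791. Cd9 is overlapped on the opposite strand by Gm26728 and Gm28809, and Spp1 on its own strand by Gm42793, so reads of these pairs may not be separable.

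**Figure D1:**
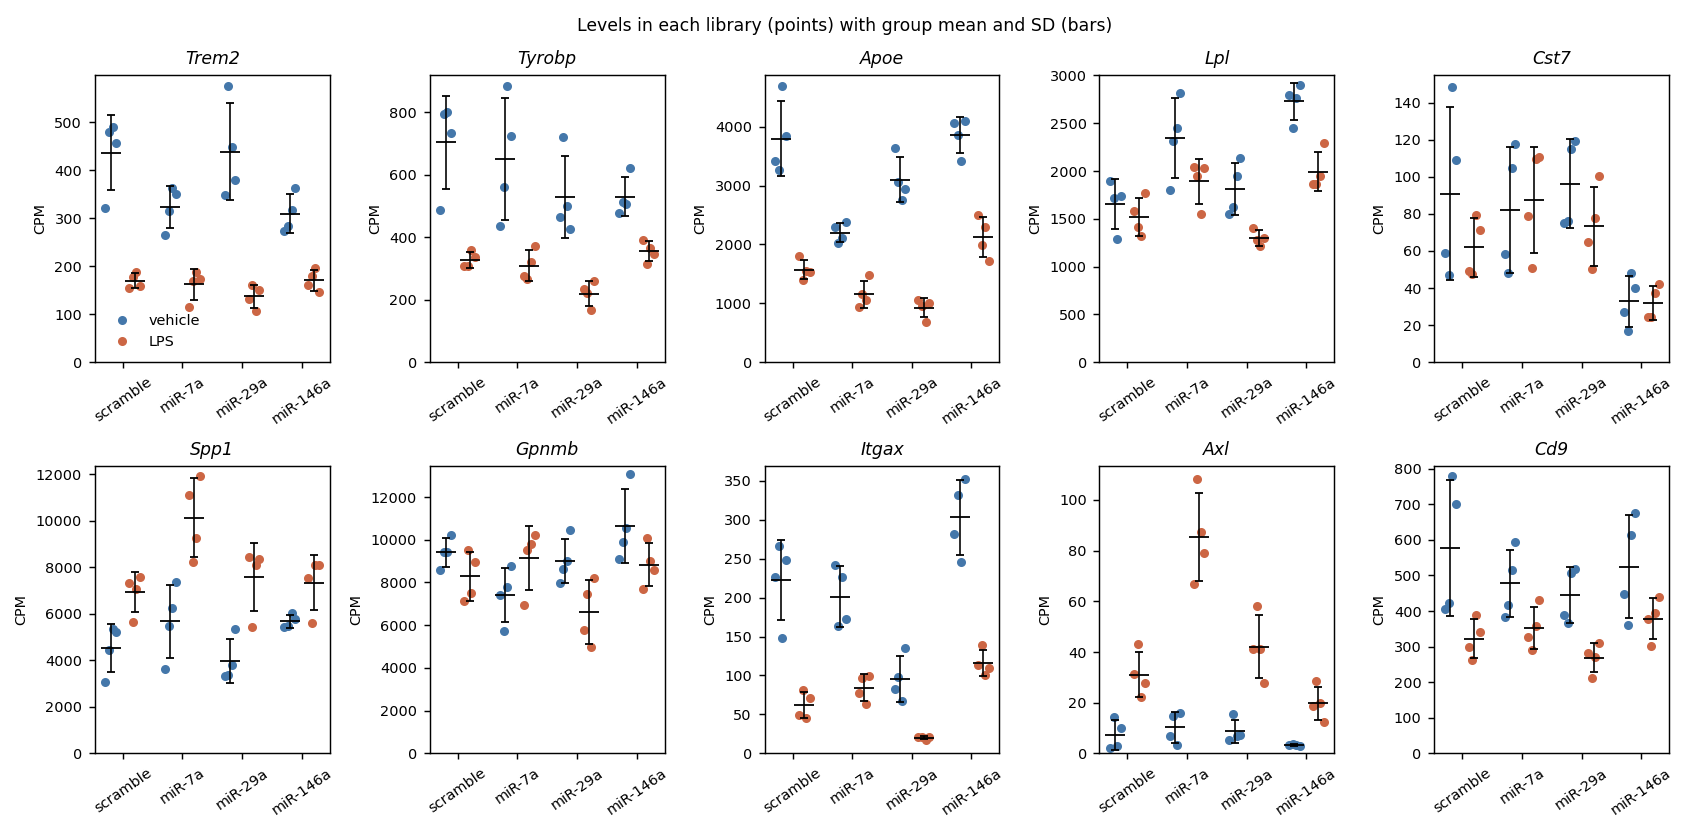
Level of each of the 10 genes in CPM (linear axis from 0) for every library, by mimic on the horizontal axis and by vehicle (blue) or LPS (orange), with horizontal bars and whiskers for the group mean and SD of 4 libraries. Trem2, Tyrobp, Apoe and Itgax sit lower under LPS with every mimic, Axl sits higher, and Itgax with miR-29a under LPS is lowest at 17.1 to 21.7 CPM.

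LPS against vehicle in scramble-transfected cells asked how the genes respond without an active mimic. The receptor, its adaptor, Apoe, Itgax and Cd9 fell, whereas Axl and Spp1 rose. Of the 10 genes 2 were called higher and 5 lower, where a call needs a limma adjusted p below 0.05 and an absolute log2 fold change above 0.3. Calls were made for 18% of the 11984 genes tested, with 9.49% higher and 8.49% lower. The median log2 fold change of the members was -0.63 against 0.01 over all genes. In RNA from whole cultures, fewer cells that express a gene and less of its RNA per cell cannot be told apart.

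Trem2 measured 321, 479, 489 and 455 CPM in the VEH_scramble libraries and 155, 178, 187 and 158 CPM in the LPS_scramble libraries (replicates 1 to 4 in each). Every LPS library lay below every vehicle library. Trem2 fell by 1.37 on the log2 scale (SE 0.16, limma adjusted p = 0.000264). Tyrobp measured 486, 795, 802 and 732 CPM under vehicle and 307, 307, 358 and 337 CPM under LPS. It fell by 1.10 on the log2 scale (SE 0.18, limma adjusted p = 0.00150), so receptor and adaptor RNA were both lower.

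Apoe, which encodes the lipoprotein bound by TREM2, measured 3409, 3259.7, 4686 and 3836 CPM under vehicle. Under LPS it measured 1798, 1403, 1555 and 1536 CPM, with no overlap, and fell by 1.27 on the log2 scale (SE 0.16, limma adjusted p = 0.000355). Lpl measured 1285 to 1896 CPM under vehicle and 1316 to 1765 CPM under LPS. These ranges overlapped, and its log2 fold change was -0.13 (95% CI -0.50 to 0.23, limma adjusted p = 0.610).

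Itgax measured 227, 266, 149 and 248 CPM under vehicle and 49.8, 80.9, 45.6 and 71.3 CPM under LPS. It had the largest fall of the 10 genes, by 1.84 on the log2 scale (SE 0.23, limma adjusted p = 0.000337). Axl moved the other way, from 2.12, 14.5, 2.79 and 10.2 CPM to 31.5, 43.1, 22.1 and 27.6 CPM. Its log2 fold change was 2.41 (SE 0.47, limma adjusted p = 0.00522), the largest rise among the members. Cd9 measured 405, 423, 779.9 and 702 CPM under vehicle and 299, 262, 388 and 341 CPM under LPS, a fall by 0.81 on the log2 scale (SE 0.23, limma adjusted p = 0.0289). The vehicle libraries of Cd9 spread widely, and its call was lost when any of VEH_scramble replicates 3 and 4 or LPS_scramble replicates 1, 2 and 4 was left out.

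Spp1 measured 3088, 4439, 5335 and 5204 CPM under vehicle and 7345, 5671, 7084 and 7609 CPM under LPS. All LPS libraries lay above the vehicle libraries, and the log2 fold change was 0.62 (SE 0.20, limma adjusted p = 0.0485). This call was lost in 7 of the 8 fits that left out 1 library and was kept only without VEH_scramble replicate 3. It was also lost with median-of-ratios scaling and with limma-trend. Cst7 measured 59.0, 47.2, 149 and 109 CPM under vehicle and 49.4, 47.6, 79.4 and 71.1 CPM under LPS. The Cst7 ranges overlapped, and the log2 fold change of -0.45 (95% CI -1.14 to 0.25) missed the threshold (limma adjusted p = 0.352). Gpnmb measured 8564 to 10241 CPM under vehicle and 7127 to 9542 CPM under LPS, with a log2 fold change of -0.22 (95% CI -0.57 to 0.13, limma adjusted p = 0.373).

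**Figure D2:**
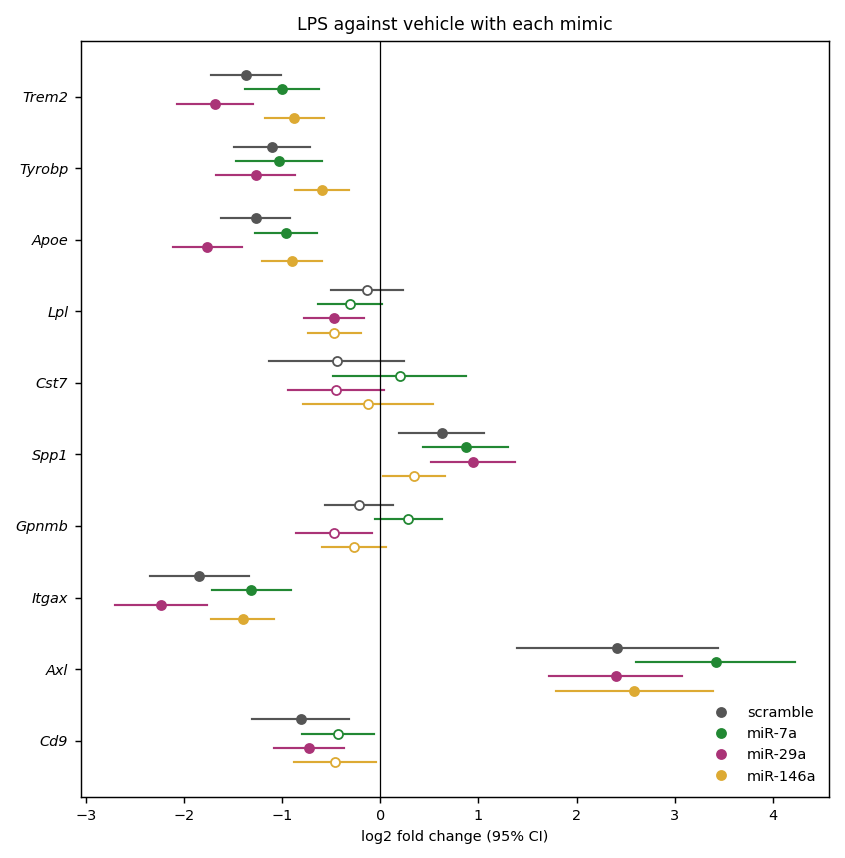
Log2 fold change of LPS against vehicle for each gene with scramble, miR-7a, miR-29a and miR-146a, with lines for the 95% confidence interval of each limma fit (4 against 4 libraries) and filled points for called changes. Trem2, Tyrobp, Apoe and Itgax are filled below 0 and Axl is filled above 0 with scramble and all 3 active mimics, from -2.24 for Itgax with miR-29a to 3.42 for Axl with miR-7a.

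The response to LPS was then measured within each active mimic. With miR-29a, Trem2 measured 348, 575, 448 and 379 CPM under vehicle and 131, 160.0, 106 and 149.7 CPM under LPS. It fell by 1.68 on the log2 scale (SE 0.18, limma adjusted p = 5.75e-05). Of the 10 genes 2 were called higher and 6 lower with miR-29a, where 26.5% of the 11972 genes tested were called, 13.4% higher and 13.1% lower. Itgax fell by 2.24 (SE 0.22), Apoe by 1.77 (SE 0.16) and Tyrobp by 1.27 (SE 0.19) on the log2 scale. Axl changed by 2.40 (SE 0.31) and Spp1 by 0.95 (SE 0.20), both higher under LPS. Cd9 fell by 0.73 (SE 0.16) and Lpl by 0.47 (SE 0.14) on the log2 scale. The Lpl call (limma adjusted p = 0.0283) was lost without VEH_miR-29a replicate 3, VEH_miR-29a replicate 4 or LPS_miR-29a replicate 3. With the replicate number as a block Cst7 (log2 fold change -0.42, limma adjusted p = 0.0160) and Gpnmb (-0.48, limma adjusted p = 0.00954) were called as well, and 37.4% of all genes tested were called.

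With miR-7a, Trem2 measured 264, 315, 363 and 350.2 CPM under vehicle and 116, 169, 188 and 174 CPM under LPS. It fell by 1.01 on the log2 scale (SE 0.17, limma adjusted p = 0.00509). Of the members 2 were called higher and 4 lower, where 6.68% of the 11684 genes tested were called, 2.7% higher and 3.98% lower. Axl rose from 6.99, 14.8, 3.42 and 15.99 CPM to 67.0, 108, 87.3 and 79.1 CPM, a log2 fold change of 3.42 (SE 0.37, limma adjusted p = 0.000334). Itgax fell by 1.31 (SE 0.19), Tyrobp by 1.03 (SE 0.20) and Apoe by 0.96 (SE 0.15) on the log2 scale. Spp1 changed by 0.87 (SE 0.20, limma adjusted p = 0.0208), a call lost without VEH_miR-7a replicate 2 or LPS_miR-7a replicate 4 and with limma-trend. Without VEH_miR-7a replicates 2 to 4, the libraries high in Rmrp, 1 vehicle library remained, its spread taken from the LPS group, and the fit called 1 member, Axl (log2 fold change 3.56, limma adjusted p = 0.0156). The other 5 kept their sign, with log2 fold changes of -0.75 for Trem2, -0.53 for Tyrobp, -1.02 for Apoe, -1.55 for Itgax and 1.46 for Spp1 (limma adjusted p between 0.0650 and 0.458).

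With miR-146a, Trem2 measured 272, 284, 316 and 362 CPM under vehicle and 162, 180.0, 195 and 145 CPM under LPS. It fell by 0.87 on the log2 scale (SE 0.14, limma adjusted p = 0.00227). One member was called higher and 4 lower, where 4.53% of the 11859 genes tested were called, 2.94% higher and 1.59% lower. Itgax fell by 1.40 (SE 0.15), Apoe by 0.90 (SE 0.14) and Tyrobp by 0.60 (SE 0.13) on the log2 scale. Axl rose from 3.35, 3.89, 3.13 and 2.76 CPM to 18.6, 28.4, 19.8 and 12.3 CPM, a log2 fold change of 2.59 (SE 0.37, limma adjusted p = 0.00124). The Tyrobp call (limma adjusted p = 0.0163) was lost without VEH_miR-146a replicate 3, VEH_miR-146a replicate 4 or LPS_miR-146a replicate 2, and in the fit of all 32 libraries. Spp1 had a log2 fold change of 0.35 (95% CI 0.03 to 0.66, limma adjusted p = 0.228) and was not called, except without the filter on low counts (limma adjusted p = 0.01004). Lpl measured 2798, 2450.1, 2766 and 2902 CPM under vehicle and 1869, 1869, 1946 and 2294 CPM under LPS, without overlap. The log2 fold change of Lpl, -0.47 (95% CI -0.74 to -0.19), missed the threshold (limma adjusted p = 0.0550), and Lpl was called in the fit of all 32 libraries (limma adjusted p = 0.0377), without the filter on low counts (limma adjusted p = 2.36e-05), at a minimum posterior of 0.99 (limma adjusted p = 0.0410) and without LPS_miR-146a replicate 4 (limma adjusted p = 0.0302).

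Whether a mimic changed the response to LPS was tested with interaction terms over 16 libraries each, and none of the 10 genes was called for any mimic. Over all genes 0.00843% were called for miR-7a, 0.0167% for miR-29a and 0% for miR-146a by limma, while 625, 750 and 1343 genes had an unadjusted p below 0.05. For Trem2 the difference in log2 fold change was 0.36 with miR-7a (95% CI -0.14 to 0.87), -0.31 with miR-29a (95% CI -0.83 to 0.22) and 0.48 with miR-146a (95% CI 0.05 to 0.92). For Axl with miR-7a it was 1.00 (95% CI -0.40 to 2.40). Without VEH_miR-7a replicates 2 to 4 the differences with miR-7a were 0.61 for Trem2 and 1.13 for Axl, and again none of the 10 genes was called. The intervals span changes of both small and large size, so the calls above do not show that the responses differed between mimics.

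Under LPS each mimic was set against LPS_scramble, to ask how the microRNA alters the activated cells. Against the shared scramble libraries Axl was higher with miR-7a, Itgax, Apoe and Tyrobp were lower with miR-29a, and Itgax was higher and Cst7 lower with miR-146a. The mimics were not tested against each other, and with the block some calls were common to 2 mimics, as given below. Trem2 itself was not called with any mimic. Its log2 fold change was -0.08 with miR-7a (95% CI -0.42 to 0.25), -0.31 with miR-29a (95% CI -0.62 to -0.0046) and 0.01 with miR-146a (95% CI -0.26 to 0.27).

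**Figure D3:**
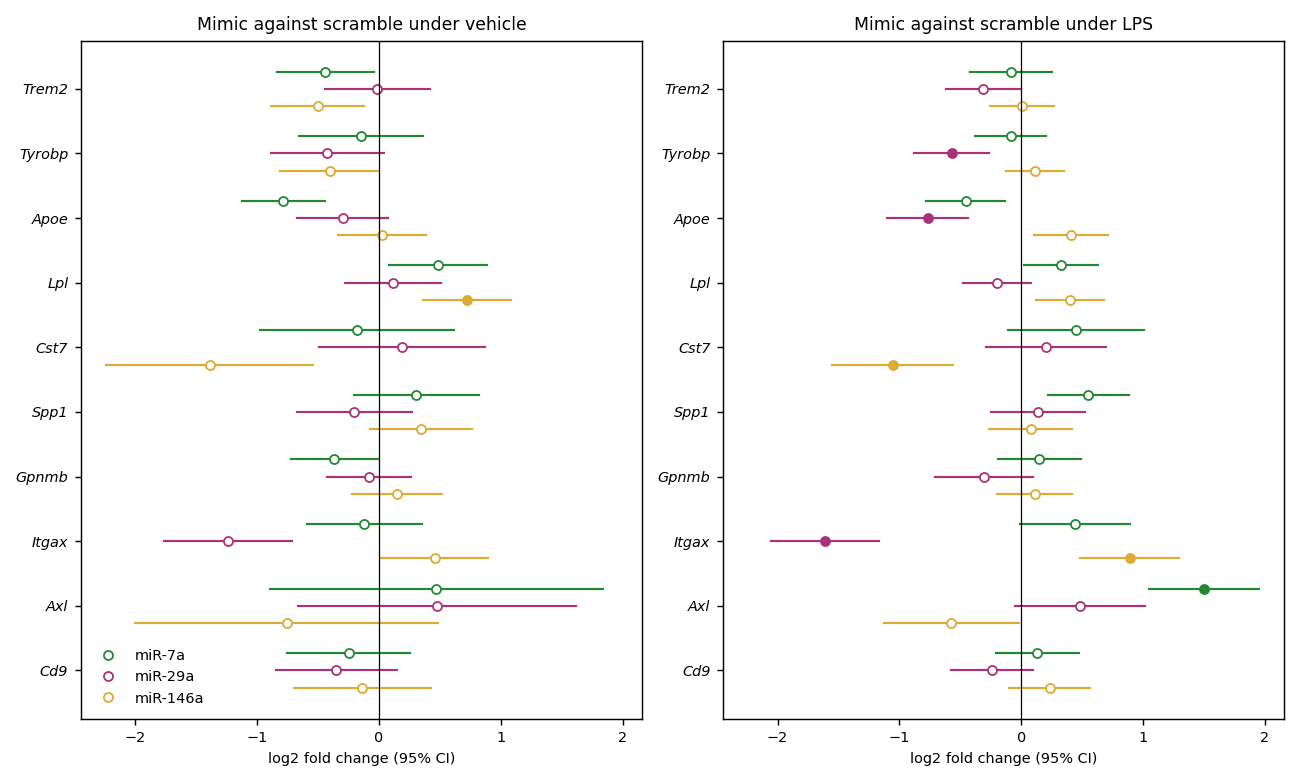
Log2 fold change of each mimic against scramble under vehicle (left) and under LPS (right) for each gene, with lines for the 95% confidence interval of each limma fit (4 against 4 libraries) and filled points for called changes. The filled points under LPS are Axl with miR-7a at 1.499, Itgax, Apoe and Tyrobp with miR-29a at -1.61, -0.77 and -0.57, and Itgax and Cst7 with miR-146a at 0.89 and -1.06, while Lpl with miR-146a at 0.72 is the filled point under vehicle.

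With miR-7a under LPS, Axl measured 67.0, 108, 87.3 and 79.1 CPM against 31.5, 43.1, 22.1 and 27.6 CPM with scramble. Every miR-7a library lay above every scramble library, and the log2 fold change was 1.499 (SE 0.21, limma adjusted p = 0.00533). Axl was the 1 member called, where 2.78% of the 12712 genes tested were called, 1.57% higher and 1.21% lower. It was called in all 8 fits that left out 1 library, and its 3′UTR holds both miR-7a matches printed above. Spp1 measured 11136, 8234, 9279 and 11925 CPM against 7345, 5671, 7084 and 7609 CPM with scramble, also without overlap. Its log2 fold change of 0.55 (SE 0.15) missed the threshold without the block (limma adjusted p = 0.0796). Same-numbered libraries deviated together in this comparison, and with the replicate number as a block 5 members were called higher and 1 lower, where 9.42% of all genes tested were called. The block added Spp1 (log2 fold change 0.55, limma adjusted p = 0.000947), Cst7 (0.46, limma adjusted p = 0.0295), Itgax (0.45, limma adjusted p = 0.01997), Lpl (0.32, limma adjusted p = 0.0239) and Apoe (-0.45, limma adjusted p = 0.0229).

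With miR-29a under LPS, Itgax measured 21.6, 21.7, 17.1 and 20.7 CPM against 49.8, 80.9, 45.6 and 71.3 CPM with scramble. These libraries held the lowest Itgax levels of the 32, and the gene fell by 1.61 on the log2 scale (SE 0.20, limma adjusted p = 0.00263). No member was called higher and 3 were called lower, where 4.62% of the 12995 genes tested were called, 2.12% higher and 2.49% lower. Apoe measured 1048, 961, 687 and 998.8 CPM against 1798, 1403, 1555 and 1536 CPM and fell by 0.77 on the log2 scale (SE 0.15, limma adjusted p = 0.0181). Tyrobp measured 233, 219.9, 166 and 259 CPM against 307, 307, 358 and 337 CPM and fell by 0.57 on the log2 scale (SE 0.14, limma adjusted p = 0.0438). Neither pair of ranges overlapped. The Tyrobp call was nonetheless kept in 1 of the 8 fits that left out a library, that without LPS_miR-29a replicate 4, and lost in the fit of all 32 libraries, and the Apoe call was lost without LPS_scramble replicate 1, 3 or 4. Lpl and Cst7, whose 3′UTRs hold an 8-base miR-29a match, had log2 fold changes of -0.20 (95% CI -0.48 to 0.08) and 0.20 (95% CI -0.29 to 0.70). Gpnmb, with a 7-base match, had one of -0.31 (95% CI -0.71 to 0.10, limma adjusted p = 0.375), and with the replicate number as a block it was called (-0.33, limma adjusted p = 0.0420), where the block called 10.5% of all genes tested.

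With miR-146a under LPS, Itgax measured 113, 139, 101 and 109.7 CPM against 49.8, 80.9, 45.6 and 71.3 CPM with scramble, a log2 fold change of 0.89 (SE 0.18, limma adjusted p = 0.0333). Cst7 measured 24.2, 24.4, 37.2 and 42.4 CPM against 49.4, 47.6, 79.4 and 71.1 CPM and fell by 1.06 on the log2 scale (SE 0.23, limma adjusted p = 0.0375). Neither gene's libraries overlapped between the groups. Thus 1 member was called higher and 1 lower, where 2.41% of the 12313 genes tested were called, 0.812% higher and 1.6% lower. Itgax was called in 1 of the 8 fits that left out a library (without LPS_scramble replicate 2) and Cst7 in 2 of 8 (without LPS_scramble replicate 2 or LPS_miR-146a replicate 4). The Cst7 call was also lost in the fit of all 32 libraries and with limma-trend. With the replicate number as a block Apoe (log2 fold change 0.43, limma adjusted p = 0.00893) and Lpl (0.39, limma adjusted p = 0.00802) were called as well, where the block called 10.6% of all genes tested. Axl, whose 3′UTR holds an 8-base miR-146a match, measured 18.6, 28.4, 19.8 and 12.3 CPM against 31.5, 43.1, 22.1 and 27.6 CPM. The Axl ranges overlapped, and the log2 fold change was -0.57 (95% CI -1.13 to -0.02, limma adjusted p = 0.267).

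Under vehicle the mimics were compared with VEH_scramble, as a measure of their effect in unstimulated cells. Lpl was the 1 gene called, with miR-146a, where 1.87% of the 11464 genes tested were called, 0.837% higher and 1.03% lower. Lpl measured 2798, 2450.1, 2766 and 2902 CPM with miR-146a and 1896, 1717, 1285 and 1740.1 CPM with scramble, without overlap. Its log2 fold change was 0.72 (SE 0.17, limma adjusted p = 0.0480), and the call was kept in 1 of the 8 fits that left out a library, that without VEH_scramble replicate 1, and lost with limma-trend. Cst7 measured 26.8, 16.8, 48.1 and 39.8 CPM with miR-146a and 59.0, 47.2, 149 and 109 CPM with scramble. These overlapped by 1 library in each group, and the log2 fold change of -1.39 (SE 0.39) missed the threshold (limma adjusted p = 0.0682). Cst7 was called in the fit of all 32 libraries (limma adjusted p = 0.0126), without the filter on low counts (limma adjusted p = 0.0241) and without VEH_scramble replicate 1 (limma adjusted p = 0.0363). Cst7 thus had low levels with miR-146a in both conditions, with 16.8 to 48.1 CPM in these 8 libraries. Trem2 averaged 309 CPM with miR-146a and 436 CPM with scramble and was lower in all 4 same-numbered pairs, although the ranges overlapped. Its log2 fold change was -0.50 (95% CI -0.89 to -0.12, limma adjusted p = 0.109), and it was called without VEH_scramble replicate 1 (-0.65, limma adjusted p = 0.0290).

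With miR-29a under vehicle, Itgax measured 82.7, 97.9, 66.9 and 135 CPM against 227, 266, 149 and 248 CPM with scramble. All 4 libraries lay below the scramble libraries, with a log2 fold change of -1.24 (SE 0.24), but the limma adjusted p was 0.141. No member was called, where 0.00877% of the 11399 genes tested were called by limma, with 1173 genes at an unadjusted p below 0.05. Same-numbered libraries deviated together here, and with the replicate number as a block Itgax was called (log2 fold change -1.25, limma adjusted p = 0.00771), where the block called 0.798% of the genes tested. Itgax was also called in the fit of all 32 libraries (limma adjusted p = 0.00202). Itgax was thus lower with miR-29a by log2 fold changes of -1.24 under vehicle and -1.61 under LPS, and the difference of -0.38 between them (95% CI -1.09 to 0.32) was not called.

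With miR-7a under vehicle, no member was called, where 0.0459% of the 10900 genes tested were called by limma (0.0367% higher and 0.00917% lower) and 1351 genes had an unadjusted p below 0.05. Apoe measured 2288, 2021, 2111 and 2379 CPM against 3409, 3259.7, 4686 and 3836 CPM with scramble, without overlap. Its log2 fold change was -0.79 (SE 0.16, limma adjusted p = 0.0768), and without VEH_miR-7a replicates 2 to 4 it was -0.72. Apoe was called in the fit of all 32 libraries (limma adjusted p = 0.00489), without the filter on low counts (limma adjusted p = 0.0160) and at a minimum posterior of 0.99 (limma adjusted p = 0.0484). Trem2 had a log2 fold change of -0.44 (95% CI -0.84 to -0.04, limma adjusted p = 0.365), and without those 3 libraries it was -0.71 (limma adjusted p = 0.984).

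Across the 8 groups Trem2 averaged 438 ± 101 CPM in VEH_miR-29a, 436 ± 77.7 in VEH_scramble, 323 ± 44.3 in VEH_miR-7a and 309 ± 40.4 in VEH_miR-146a (SD, with n = 4 libraries). In the LPS groups it averaged 171 ± 21.9 CPM with miR-146a, 169 ± 15.4 with scramble, 162 ± 31.7 with miR-7a and 137 ± 23.5 with miR-29a (SD, n = 4 each). In VEH_miR-7a replicate 1, the library without high Rmrp, Trem2 measured 264 CPM. In this order the libraries of neighbouring groups overlapped, except between VEH_miR-146a and LPS_miR-146a, where the vehicle groups end and the LPS groups begin. Among 11995 genes, those whose mean log2 CPM over the 8 groups was most like that of Trem2 were Phykpl (Pearson r = 0.988), Ltc4s (leukotriene C4 synthase, 0.983), Igfbp4 (an insulin-like growth factor binding protein, 0.981), Mapkapk3 (a stress-activated kinase, 0.981) and Pick1 (0.980). These coefficients describe 8 group means that fall into a vehicle and an LPS cluster and share their libraries.

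The DAM genes that the study took from the known signature, other than the members, and genes of the same pathways were counted by list in LPS_scramble against VEH_scramble, where 9.49% of all genes tested were called higher and 8.49% lower. Counts of 1 of 9 and 1 of 7 genes lie near these shares. Of 9 tested genes that rise at the later DAM stage, 0 were called higher and 1 lower, namely Ank (a phosphate transporter, log2 fold change -0.66), with a list median of -0.30 against 0.01 over all genes. Of 7 tested genes that rise at the first stage, 0 were called higher and 1 lower (Timp2, a metalloproteinase inhibitor, -0.51). Of the homeostatic genes Cst3 (cystatin C, -1.32) and Csf1r (the receptor of macrophage growth factors, -0.62) were called lower. Of 5 tested genes lowered at the first stage 2 were called lower, Txnip (a thioredoxin inhibitor, -3.34) and Glul (glutamine synthetase, -0.60), and Tgfbr1 (0.58) was called higher.

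Against the same shares, and downstream of the receptor, 3 of 16 signalling genes were called higher under LPS with scramble, the kinases Lyn (log2 fold change 0.60) and Pik3cg (0.50) and the exchange factor Vav1 (0.42, named after its value was seen). Hcst, which encodes the related adaptor DAP10, was called lower at -1.20, and the list median was 0.22. The adaptor genes Tyrobp and Hcst were thus lower, and the 3 intracellular signalling genes called were higher. Of 15 tested partners of the members 1 was called higher, Itgam (the integrin subunit CD11b, 0.54), and 2 lower, Tfeb (a regulator of lysosomal genes, -0.89) and Ctsh (a cysteine protease, -0.64). Of 11 tested genes of lipid handling and uptake 0 were called higher and 2 lower, Lgals3 (galectin-3, -1.02) and Abcg1 (a cholesterol exporter, -0.58).

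**Figure D4:**
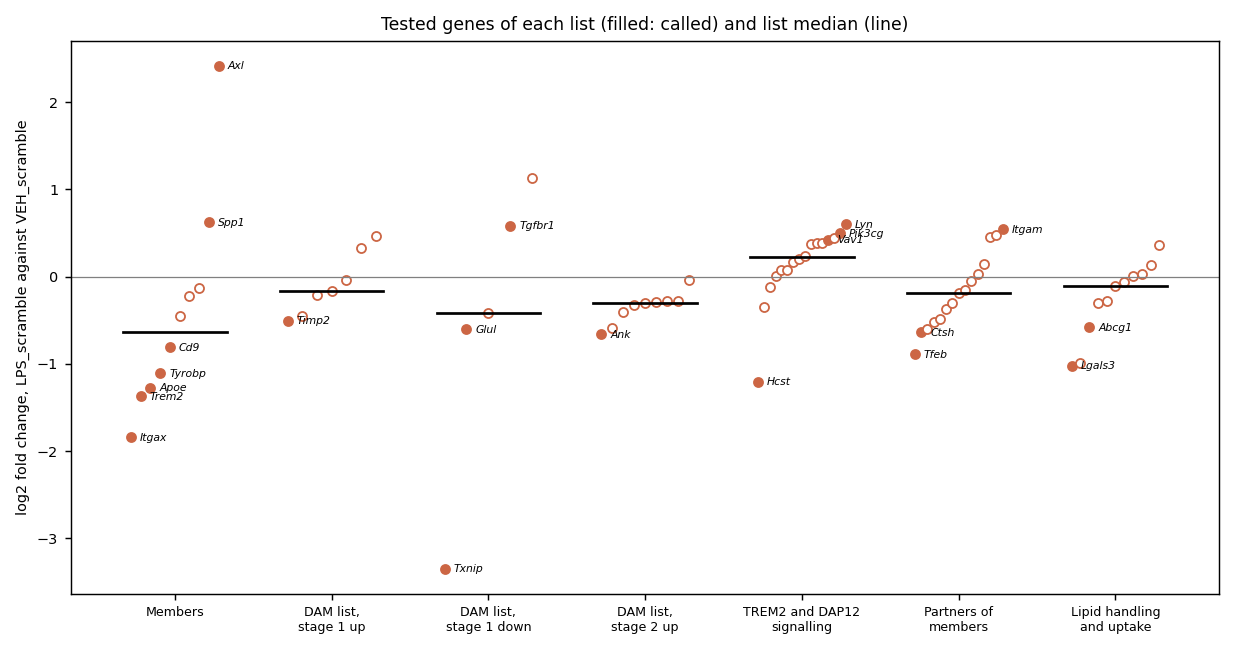
Log2 fold change of LPS_scramble against VEH_scramble for every tested gene of the members and of 6 lists, with named filled points for called genes and a line for the list median. Members range from -1.84 for Itgax to 2.41 for Axl, and Txnip among the genes lowered at the first DAM stage is lowest at -3.34.

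With miR-29a, LPS against vehicle was counted over the same lists, where 13.4% of all genes tested were called higher and 13.1% lower, more than with scramble. Whether a list differed between miR-29a and scramble was not tested. Of the 9 tested later-stage genes 0 were called higher and 6 lower, led by Ank (log2 fold change -0.93), Ctsa (a lysosomal carboxypeptidase, -0.82) and Cadm1 (a cell adhesion molecule, -0.57). Of 15 partners 6 were called lower, led by Ctsh (-1.10), Tfeb (-1.06) and Mertk (a TAM receptor, -0.75), and 0 higher. Itgam was among the 6 (-0.37), whereas it was called higher with scramble, and the difference between these responses of -0.89 was not called (limma adjusted p = 0.335). Of 11 lipid genes 5 were called lower, led by Lgals3 (-1.40), Lrp1 (a lipoprotein receptor, -1.29) and Igf1 (-0.90), and 0 higher. Of 16 signalling genes 1 was called higher (Lyn, 0.57) and 3 lower, Hcst (-1.28), Inpp5d (a lipid phosphatase, -0.86) and Grb2 (an adaptor protein, -0.51, named after its value was seen). Of 8 first-stage genes 2 were called higher, Fth1 (ferritin heavy chain, 1.40) and H2-D1 (a class I histocompatibility gene, 0.50), and Timp2 lower (-1.03). Csf1r (-1.13) and Cst3 (-1.40), both homeostatic genes, were called lower. Of 5 genes lowered at the first stage 3 were called lower, led by Txnip (-2.62) and Glul (-0.64), and Tgfbr1 was called higher (0.63).

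With miR-7a, where 6.68% of all genes tested were called for LPS against vehicle, 0 of the 16 signalling genes and 0 of 15 partners were called, which lies near that share. Fth1 (log2 fold change 1.47) and H2-D1 (1.40) were called higher among 8 first-stage genes, with 0 lower, and Igf1 (-1.12) and Lgals3 (-0.72) lower among 11 lipid genes, with 0 higher. Of 9 later-stage genes 1 was called higher (Csf1, macrophage colony-stimulating factor, 0.64) and 1 lower (Cadm1, -0.47). The homeostatic gene Cst3 was called lower (-0.71), and of 5 genes lowered at the first stage Txnip was called lower (-0.89) and Tmem119 higher (2.49). Without VEH_miR-7a replicates 2 to 4, which left 0.543% of all genes tested called, these genes kept their direction and none was called (limma adjusted p between 0.0652 and 0.457). With miR-146a, where 4.53% of all genes tested were called, Fth1 (1.46) and H2-D1 (0.66) were called higher and Timp2 lower (-0.48) among 8 first-stage genes. The homeostatic gene Cst3 (-0.65) was called lower, as were Lgals3 (-0.57) among 11 lipid genes, Cd44 (an adhesion receptor of osteopontin, -0.45) among 15 partners and Txnip (-2.87) among 5 genes lowered at the first stage. Plcg2 (a phospholipase downstream of TREM2, 0.49) was called higher among 16 signalling genes, and 0 of 9 later-stage genes were called.

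Between mimics and scramble under LPS, 4.62% of all genes tested were called with miR-29a, 2.78% with miR-7a and 2.41% with miR-146a. The list calls given here with miR-29a were all lower. Grb2 (log2 fold change -0.97) was called among 16 signalling genes, and Ctsh (-0.82), Itgb2 (the integrin subunit that pairs with CD11c, -0.67) and Lgmn (legumain, a lysosomal protease, -0.52) among 15 partners. Ctsa (-0.72) and Gusb (a lysosomal glucuronidase, -0.60) were called among 9 later-stage genes, the homeostatic gene Csf1r (-0.70), Timp2 (-0.42) among 7 first-stage genes, and Lgals3 (-0.71) and Lrp1 (-0.64) among 11 lipid genes. With miR-7a under LPS, Txnip (2.41) and Csf1 (0.69) were called higher, and with miR-146a Timp2 (0.54). Among the macrophage markers Adgre1 was called lower with miR-7a (-0.55) and Fcgr3 with miR-29a (-0.91), and their part in the member changes was not tested. Under vehicle Ccl6 (a chemokine, 0.92) was called higher with miR-146a. Txnip was also called in the interaction of miR-7a with LPS, with a difference in log2 fold change of 2.48 (SE 0.22, limma adjusted p = 1.31e-05), and of 2.58 without VEH_miR-7a replicates 2 to 4 (limma adjusted p = 0.00918).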

How the data were processed

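RNA sequencing libraries of BV-2 cells (8 groups, 4 libraries each) were prepared by the authors with a total RNA kit after ribosomal RNA depletion, and reads were counted per gene on GRCm38 with the nf-core rnaseq workflow. The deposited values are estimated counts per gene, some of which lost their decimal marks, so that they are not counts on 1 scale. Whether the counting used strand is not given in the sources used here. The authors state filterByExpr, TMM and limma with edgeR for each pair of conditions.

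Lost decimal marks were restored here by a model that weighs 0 to 3 lost decimals from the digits of a value and the level of the gene in other libraries. Of 590874 values above 0, 28.5% were given decimals, and 1.24% were uncertain (posterior below 0.9). Genes with an uncertain value were left out of a comparison. All 32 values were restored ones for Spp1, 25 for Cd9, 20 for Apoe, 15 for Lpl, 11 for Itgax, 4 for Trem2, 1 each for Gpnmb and Axl, and 0 for Tyrobp and Cst7. The lowest posterior was 0.973 for Spp1 and 0.984 for Cd9. No 2 libraries were identical (0 pairs). Members and gene lists were chosen with earlier results of these data known. The text names all members and, per list and comparison, at most the 3 called genes of largest absolute log2 fold change. Fcgr3 and Adgre1, called cell type markers, the call of Mbp and Itgam with miR-29a were named after their values were seen. Counts over the homeostatic and oligodendrocyte lists are not reported here.

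The filterByExpr rule (minimum count 10, minimum total 15) and TMM were written out in R 4.3.3, and each pair of groups was fitted with limma 3.58.1 (voom weights, empirical Bayes, Benjamini-Hochberg over all genes tested). Tested on simulated data for LPS_scramble against VEH_scramble (12579 genes), 99.978% of certain values were restored correctly and 92.7% of 151 genes changed at least 2-fold were recovered. The simulation gave each gene 1 mean level over all groups and changed 200 genes, in LPS_scramble only. It held no effect shared by same-numbered libraries. The data hold more changes than that, so these shares may not carry over to them. The study describes the replicates as independent experiments. Same-numbered libraries were said to deviate together where every correlation of deviations over genes was above 0.1. This held in LPS_scramble against VEH_scramble (0.208 to 0.305) and LPS_miR-29a against VEH_miR-29a (0.201 to 0.371). It also held in VEH_miR-29a against VEH_scramble (0.158 to 0.433) and each mimic against scramble under LPS (0.176 to 0.557). The other comparisons missed this rule, although their mean correlation was above 0. It ranged from 0.113 for VEH_miR-7a against VEH_scramble to 0.283 for the miR-29a interaction. Seed matches were read from the GENCODE M21 annotation on GRCm38, with the 3′UTR of the longest coding transcript of a gene. Counting error alone is covered by the level that 3 counts give. Alternatives were other scaling, filter, restoration, block and left-out libraries.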

Additional observations from a re-analysis of the deposited data

Results flagged for a closer look

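Spp1 in LPS_miR-29a replicate 2 measured 5419 CPM, while the other 3 libraries of the group measured 8108 to 8467 CPM. The gap was 0.882 of the group's range, above Dixon's 95% critical value for 4 samples. Of 80 groups of 4 examined (10 genes in 8 groups), 1 was past that value, where chance gives 4. Spp1 was higher under LPS with miR-29a in all 8 fits that left out 1 library.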

How the results depend on the processing

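Members called numbered 7 for LPS in scramble, 19 for LPS in mimic cells, 6 for mimics under LPS, 1 for mimics under vehicle and 0 for the interactions. With the replicate block mimics under LPS gave 14 calls and mimics under vehicle 4, and no call made without the block was lost. Some comparisons missed the rule of every same-numbered correlation above 0.1, although their mean correlation was above 0. There the block added Cd9 and Lpl for LPS with miR-146a, where it called 7.14% of all genes tested. It added Cd9 for LPS with miR-7a (14.7% of all genes called) and Apoe for miR-7a under vehicle (3.04%). Without VEH_miR-7a replicates 2 to 4 these log2 fold changes were -0.16 for Cd9 and -0.72 for Apoe. The block also added Cst7 for miR-146a under vehicle (log2 fold change -1.49, limma adjusted p = 0.00597), where 7.51% were called. Mimics under vehicle gave 4 calls with all 32 libraries in 1 fit, 3 without the low filter, 0 with limma-trend and 2 at a minimum posterior of 0.99. At that posterior Spp1, Cd9 and Itgax were untested in part of the comparisons. A simpler restoration to the nearest level gave 10 calls for LPS in mimic cells, 1 for mimics under LPS and 0 for mimics under vehicle. The values as deposited gave 0 for LPS in scramble, 1 for LPS in mimic cells, 0 for mimics under LPS and 0 for mimics under vehicle. There Apoe (2.71) and Itgax (4.02) for LPS with miR-7a, Apoe for LPS with miR-29a (0.39) and Apoe for miR-29a under LPS (1.37) reversed, since lost decimal marks raise single values up to 1000-fold. Leaving out 1 library gave 5 to 6 calls for LPS in scramble, 18 to 20 for LPS in mimic cells, 2 to 7 for mimics under LPS, 0 to 4 for mimics under vehicle and 0 for the interactions. The 2 calls for mimics under LPS came without LPS_scramble replicate 1, 3 or 4, and the 4 under vehicle without VEH_scramble replicate 1. Leaving out VEH_miR-7a replicates 2 to 4, chosen after seeing the data, gave 14 for LPS in mimic cells. Of the 33 called changes, 23 were called in every fit that left out 1 library, 30 with all 32 libraries in 1 fit, 29 with limma-trend, 32 with median-of-ratios scaling and 16 after restoration to the nearest level. Changes not called as reported were called in some alternatives. Gpnmb for LPS with miR-29a was called with all 32 libraries, without the low filter and without LPS_miR-29a replicate 2 or 4. Without the low filter, Gpnmb for LPS with miR-7a, Spp1 for miR-7a under LPS and Apoe for miR-146a under LPS were called. This Gpnmb change was 0.26 without VEH_miR-7a replicates 2 to 4. Tyrobp with miR-146a under vehicle was called without VEH_scramble replicate 1, and Apoe with miR-7a under LPS without LPS_miR-7a replicate 4. The cause of the other differences was not tested. Shallow VEH_miR-7a libraries (3 counts give up to 4.36 CPM) limit Axl there.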
